A study of Mus musculus with 8 samples.

Results

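Fn1, Fbln2, Sparc, Thbs1, Tnc, Col1a1, Col5a1 and Lox are 8 genes of the interstitial extracellular matrix, the matrix that fibroblasts typically lay down. They were picked by symbol from the 21240 genes of the deposited count table, and all 8 were found there. RNA came from NMuMG cells, an epithelial line from normal mouse mammary gland with wild-type genotype, grown with serum and insulin. The 4 groups were cells given BRM014 for 30 h, cells given its vehicle DMSO for 30 h, cells given BRM014 for 6 h and cells given DMSO for 6 h. BRM014 inhibits the ATPase activity of SMARCA4 and SMARCA2, the catalytic subunits of the SWI/SNF chromatin remodelling complexes. The sources used here name no dose for it. Each group had 2 libraries, called biological replicates in the labels without a word on separate cultures, so the p-values measure the spread between these libraries.

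The interstitial matrix is a network of collagen fibrils and glycoproteins around stromal cells. Cells assemble secreted fibronectin into fibrils through integrins, collagens and other glycoproteins are laid onto that scaffold, and lysyl oxidases crosslink the collagen. Matricellular proteins such as SPARC, thrombospondins and tenascins sit in the matrix and tune adhesion and growth factor signalling. In the mammary gland most of this matrix is made by stromal cells, while epithelial cells rest on a basement membrane. NMuMG cells are a common model of epithelial to mesenchymal transition under TGF-beta, in which fibronectin rises.

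The libraries held between 17859693 and 29955366 counts assigned to genes. Values are given as CPM, counts scaled to a library of 1000000 and adjusted for library composition by the TMM method, and as log2 fold changes ± standard error from 1 edgeR quasi-likelihood fit over all 8 libraries. A gene counted as changed with a Benjamini-Hochberg adjusted p below 0.05 over the 11835 genes tested. In bulk RNA, fewer cells that express a gene and less RNA per cell cannot be told apart.

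Of the 8 genes, 7 passed the filter on low counts and 1, Lox, did not. At 30 h, Fbln2, Fn1 and Thbs1 were higher under BRM014 than under DMSO, and Sparc, Col5a1, Col1a1 and Tnc were lower. Across all tested genes, 16.8% (1990) were higher and 19.1% (2258) were lower in that comparison, or 1890 and 1394 genes with scaling on ribosomal protein genes. At 6 h, Fbln2 and Thbs1 were higher, the same 4 genes were lower, and Fn1 did not pass the test, against 9.35% (1106) of all tested genes higher and 14.4% (1709) lower, or 1691 and 1391 genes with library totals. Col1a1 entered the test only through 3 DMSO libraries, and a gene that enters in this way had to be higher under DMSO. The counts of the 8 genes are therefore a description of these genes and support no statement about matrix genes as a class.

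**Figure D1:**
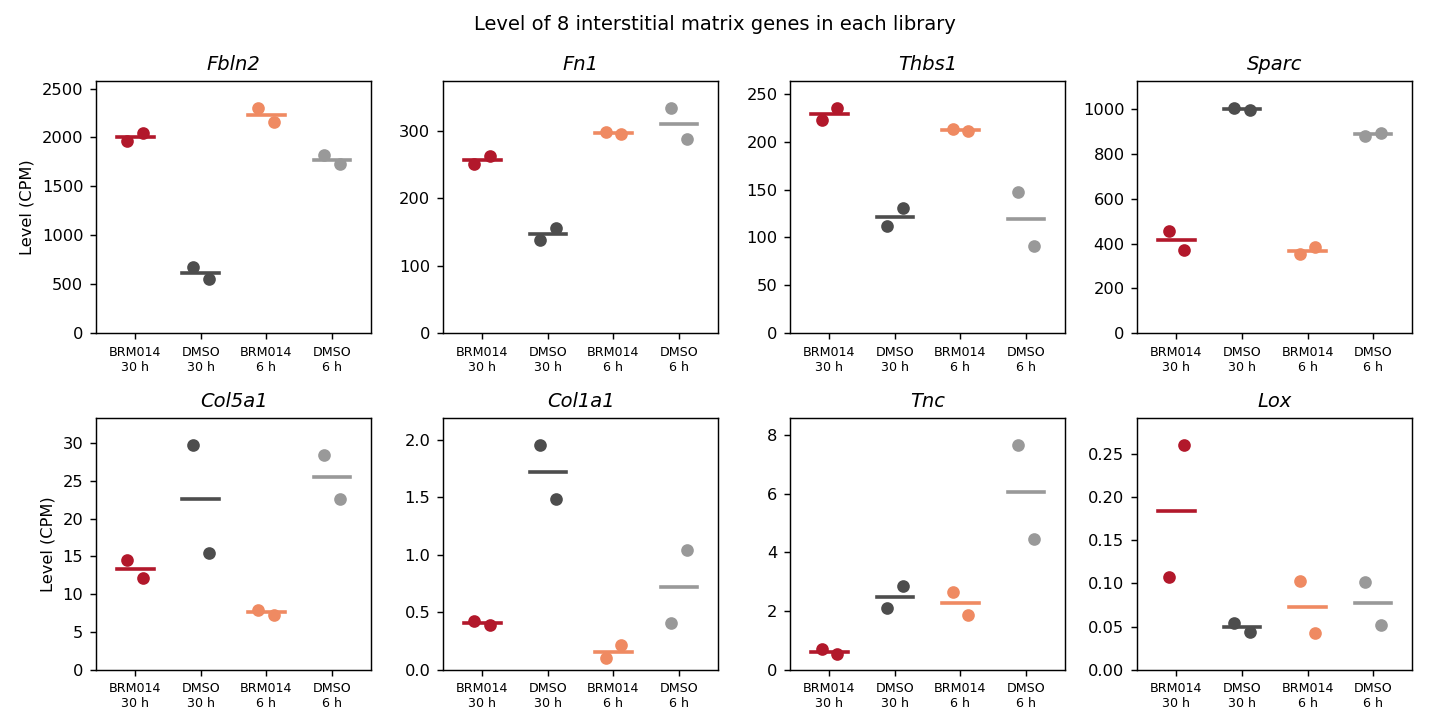
Level of each of the 8 genes (y axis, CPM, starting at 0, with its own scale in each panel) in the 4 groups (x axis). Points are the 2 libraries of a group and bars are group means; Fbln2 reached 1967 and 2041 CPM under BRM014 at 30 h, and Lox reached at most 0.261 CPM in any library.

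Fbln2 encodes fibulin-2, a calcium-binding glycoprotein that links fibronectin, elastic fibres and basement membranes. Sparc encodes a collagen-binding matricellular protein, and Col5a1 encodes a chain of collagen V, which sets the diameter of collagen I fibrils. The promoters of these 3 genes are shown because Sparc and Col5a1 had the most alike profiles of any pair among the 7 tested genes. Profiles were log2 CPM centred on each gene's mean, and the lead was narrow (a difference of 0.37, against 0.39 for Fn1 and Fbln2). Fbln2, the most abundant per kilobase in 3 of the 4 groups, moved the other way. Each sequence runs 5′ to 3′ on the strand of the gene, from 250 bases before the start of the RefSeq transcript to 50 bases after it, in build GRCm38.p6. The counts were made on another build, mm9, so no position was carried from one to the other. Capitals mark matches to the GC box (GGGCGG) and the E-box (CANNTG) on either strand, which do not overlap each other here.
Fbln2, chr6:91212514-91212813, plus strand: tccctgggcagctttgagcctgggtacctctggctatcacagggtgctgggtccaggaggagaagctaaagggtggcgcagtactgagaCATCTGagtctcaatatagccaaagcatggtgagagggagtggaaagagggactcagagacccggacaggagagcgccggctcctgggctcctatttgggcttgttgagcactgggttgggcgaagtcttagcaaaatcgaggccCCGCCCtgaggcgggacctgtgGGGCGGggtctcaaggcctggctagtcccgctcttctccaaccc
Sparc, chr11:55420031-55420330, minus strand: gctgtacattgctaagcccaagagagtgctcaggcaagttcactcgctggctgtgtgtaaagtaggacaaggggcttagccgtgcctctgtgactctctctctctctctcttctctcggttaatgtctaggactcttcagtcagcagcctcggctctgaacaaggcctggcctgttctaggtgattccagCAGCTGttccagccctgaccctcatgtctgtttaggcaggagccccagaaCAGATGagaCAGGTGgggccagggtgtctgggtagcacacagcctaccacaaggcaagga
Col5a1, chr2:27886175-27886474, plus strand: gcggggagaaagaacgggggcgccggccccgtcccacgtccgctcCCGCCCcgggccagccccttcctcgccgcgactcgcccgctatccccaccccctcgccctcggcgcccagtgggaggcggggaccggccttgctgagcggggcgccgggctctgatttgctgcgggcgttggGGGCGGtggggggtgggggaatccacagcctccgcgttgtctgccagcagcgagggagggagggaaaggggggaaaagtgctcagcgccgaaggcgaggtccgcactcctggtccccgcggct
The Fbln2 window held 2 GC boxes and 1 E-box. The Sparc window held 3 E-boxes, of which the nearest began 1 base before the transcript start, and no GC box. The Col5a1 window held 2 GC boxes and no E-box, and 75% of its bases were G or C, more than in 96.1% of the 32851 windows of the RefSeq table. Among those windows, all 300 bases long, 35.7% held a GC box and 72.3% held an E-box. The TATA motif TATAAA, found in 13.6% of the windows, was in none of these 3 and in both windows of Tnc. The AP-1 motif TGANTCA (7.81% of windows), the CRE motif TGACGTCA (1.79%), CCAAT (37.4%), the TEAD motif GGAATG (14.7%) and the serum response factor motif CArG (1.63%) had no match in the 5 windows of Fbln2, Sparc, Col5a1 and Tnc. The promoters of Fn1, Thbs1, Col1a1 and Lox were not analysed here. A match is a match of letters only, and no match says only that these letters are not in that window.

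The level of Fbln2 was 1967 and 2041 CPM under BRM014 at 30 h, against 675 and 553 CPM under DMSO at 30 h. Both treated libraries lay far above both vehicle libraries. The log2 fold change was 1.71 ± 0.10 (adjusted p = 7.53e-08), a 3.27-fold rise. At 6 h the level was 2301 and 2157 CPM under BRM014, against 1820 and 1727 CPM under DMSO. The groups did not overlap at 6 h either, but the rise was small, at 0.33 ± 0.10 (adjusted p = 0.0314). That call was lost when any 1 of the 4 libraries at 6 h was left out, with values of 0.29 to 0.40 and adjusted p-values of at least 0.0529.

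Fn1 encodes fibronectin, the glycoprotein whose fibrils form the first scaffold of the interstitial matrix. Its level was 250 and 263 CPM under BRM014 at 30 h, against 138 and 157 CPM under DMSO at 30 h. The libraries did not overlap, and the log2 fold change was 0.80 ± 0.10 (adjusted p = 4.61e-05). At 6 h the level was 299 and 295 CPM under BRM014, against 334 and 288 CPM under DMSO. Here the treated libraries lay inside the range of the vehicle libraries. The difference was -0.07 (adjusted p = 0.684), with a 95% interval of -0.28 to 0.15, and it was 0.018 when libraries were scaled by their totals alone.

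For both glycoproteins the group that stood apart was DMSO at 30 h, which held the lowest level of the 4 groups. In vehicle cells, both were lower at 30 h than at 6 h, with log2 fold changes of -1.08 ± 0.10 for Fn1 (adjusted p = 1.78e-05) and -1.53 ± 0.10 for Fbln2 (adjusted p = 2.33e-06). In BRM014 cells the same comparison gave -0.21 for Fn1 (adjusted p = 0.119; 95% interval -0.43 to 0.01) and -0.15 for Fbln2 (adjusted p = 0.258; 95% interval -0.37 to 0.07). The test of the difference between the BRM014 effects at 30 h and at 6 h gave 0.87 ± 0.14 for Fn1 (adjusted p = 0.00284) and 1.38 ± 0.14 for Fbln2 (adjusted p = 0.000125). Both were higher at 30 h in every alternative processing that was run. No other gene of the 7 tested passed this test, against 3.89% of all tested genes (460) with a higher and 2.59% (306) with a lower effect at 30 h, or 289 and 115 genes with ribosomal protein scaling. All of these comparisons share libraries, the DMSO libraries at 30 h among them.

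**Figure D2:**
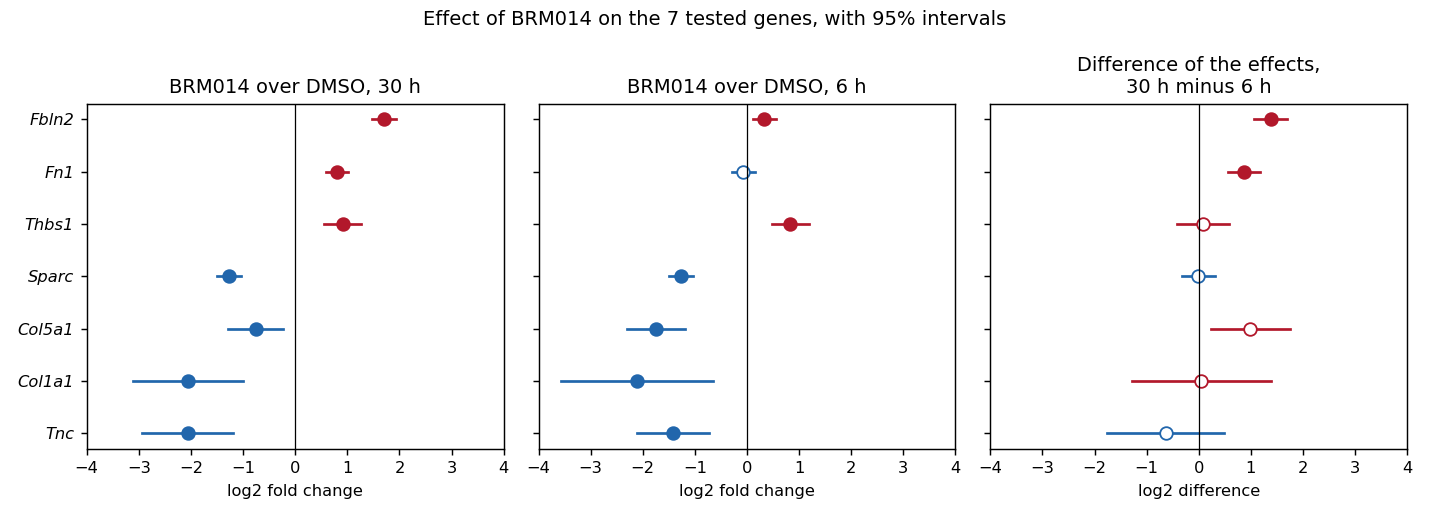
Log2 fold change of BRM014 over DMSO at 30 h and at 6 h, and the difference of the effects, for the 7 tested genes (x axes, log2 units; 1 gene per row). Points are estimates and lines are 95% intervals; red is above 0 and blue below, and filled points passed the test. Fbln2 and Fn1 have filled points in the panel of differences, at 1.38 and 0.87.

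Thbs1 encodes thrombospondin-1, a matricellular protein that binds CD36 and CD47 and can activate latent TGF-beta. It had 223 and 235 CPM under BRM014 at 30 h, against 112 and 131 CPM under DMSO at 30 h. At 6 h it had 213 and 211 CPM under BRM014, against 147 and 91.3 CPM under DMSO. All 4 treated libraries were above all 4 vehicle libraries. The rise was 0.91 ± 0.16 at 30 h (adjusted p = 0.000784), against 0.83 ± 0.16 at 6 h (adjusted p = 0.00245). The difference between times was 0.08, with a 95% interval of -0.42 to 0.58 (adjusted p = 0.882). The DMSO libraries at 6 h were unlike each other: the rise at 6 h was 1.25 without the first of them and 0.52 without the other, and it passed the test both ways.

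Sparc was the most abundant per kilobase of the 4 genes that were lower under BRM014. It had 458 and 369 CPM under BRM014 at 30 h, against 1005 and 997 CPM under DMSO at 30 h. At 6 h it had 352 and 383 CPM under BRM014, against 881 and 894 CPM under DMSO. The highest treated library was far below the lowest vehicle library at both times. The log2 fold change at 30 h was -1.28 ± 0.11 (adjusted p = 1.18e-06), or 2.42-fold lower. At 6 h it was -1.27 ± 0.11 (adjusted p = 2.51e-06), or 2.41-fold lower. The effects at 30 h and at 6 h differed by -0.01, with a 95% interval of -0.33 to 0.31 (adjusted p = 0.989), and the sign of that small value depended on the scaling. For 30 h against 6 h, Sparc gave 0.17 in BRM014 cells (adjusted p = 0.228) and 0.17 in DMSO cells (adjusted p = 0.211), and neither passed the test.

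Tnc encodes tenascin-C, a matricellular glycoprotein that appears in the stroma during development, repair and tumour growth. It was a low gene here, with 0.696 and 0.521 CPM under BRM014 at 30 h (13 and 16 counts), against 2.12 and 2.84 CPM under DMSO at 30 h (39 and 65 counts). At 6 h it had 2.67 and 1.88 CPM under BRM014, against 7.68 and 4.47 CPM under DMSO. Treated and vehicle libraries did not overlap at either time. The log2 fold change was -2.06 ± 0.40 at 30 h (adjusted p = 0.00145), against -1.43 ± 0.32 at 6 h (adjusted p = 0.00559). The call at 6 h was lost without the first DMSO library at 6 h (-0.95, adjusted p = 0.106) or without the second BRM014 library at 6 h (-1.18, adjusted p = 0.0884). Tnc was also lower at 30 h than at 6 h, with -1.92 ± 0.41 in BRM014 cells (adjusted p = 0.00294) and -1.28 ± 0.32 in DMSO cells (adjusted p = 0.00765). The value in DMSO cells was -0.82 and did not pass the test without the first DMSO library at 6 h (adjusted p = 0.132).

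Col5a1 had 14.5 and 12.2 CPM under BRM014 at 30 h, against 29.8 and 15.4 CPM under DMSO at 30 h. At 6 h it had 7.95 and 7.25 CPM under BRM014, against 28.4 and 22.6 CPM under DMSO. The groups were far apart at 6 h and close at 30 h, where 1 vehicle library was near the treated ones. The log2 fold change was -0.76 ± 0.24 at 30 h (adjusted p = 0.0263), against -1.75 ± 0.26 at 6 h (adjusted p = 0.000255). The value at 30 h rests on the spread of few libraries: it was -0.21 without the first DMSO library at 30 h (adjusted p = 0.451), -1.17 without the second (adjusted p = 0.000225), and lost its call without either BRM014 library at 30 h (adjusted p = 0.0550 and 0.177). In BRM014 cells, Col5a1 was higher at 30 h than at 6 h by 0.81 ± 0.26 (adjusted p = 0.0267), a call lost with limma-voom and without any 1 of the 4 BRM014 libraries. The effects at 30 h and at 6 h differed by 0.98, with a 95% interval of 0.23 to 1.74 that covers this gene alone, and an adjusted p of 0.124. That difference passed the test without the filter on low counts, with the replicate number as a block and without the first DMSO library at 30 h.

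Col1a1 encodes the main chain of collagen I, the chief fibril of connective tissue, and was close to the limit of detection. It had 8 and 12 counts under BRM014 at 30 h (0.428 and 0.391 CPM), against 36 and 34 counts under DMSO at 30 h (1.96 and 1.49 CPM). At 6 h it had 2 and 5 counts under BRM014 (0.103 and 0.213 CPM), against 8 and 20 counts under DMSO (0.407 and 1.04 CPM). Treated and vehicle libraries did not overlap within either time, but DMSO at 6 h overlapped BRM014 at 30 h. The fold changes were large with wide errors, at -2.06 ± 0.49 at 30 h (adjusted p = 0.00527), against -2.11 ± 0.67 at 6 h (adjusted p = 0.0362). With a filter of at least 1 CPM in at least 4 libraries, Col1a1 was not tested, so that neither call could be made. It was also not tested at 6 h when only the libraries compared were fitted. The call at 6 h was lost with ribosomal protein scaling (adjusted p = 0.0616), DESeq2 (0.0607) and limma-voom (0.0532). It was also lost without the second DMSO library at 6 h (-1.30, adjusted p = 0.326), without either BRM014 library at 6 h, or without the first BRM014 library at 30 h. The call at 30 h was lost without the second BRM014 library at 30 h (adjusted p = 0.0538). For 30 h against 6 h, Col1a1 gave 1.29 in BRM014 cells (adjusted p = 0.178) and 1.24 in DMSO cells (adjusted p = 0.0528), and neither passed the test.

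Lox encodes lysyl oxidase, which oxidises lysines of collagen and elastin so that they crosslink. It had 18 counts in the 8 libraries together. Under BRM014 at 30 h it had 2 and 8 counts, against 1 and 1 under DMSO at 30 h, and under BRM014 at 6 h it had 2 and 1 counts, against 2 and 1 under DMSO at 6 h. Summed over a group these are 0.203 CPM under BRM014 at 30 h (exact Poisson 95% interval 0.0971 to 0.372, counting error only) and 0.0485 CPM under DMSO at 30 h (0.00587 to 0.175). A change of Lox was not detectable at this depth: fitted without the filter, the value at 30 h was 1.90 with an adjusted p of 0.364.

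Levels of different genes were compared in CPM per kilobase of exon. The exons are those of the GENCODE M21 annotation, which may not be the one used for counting. Under BRM014 at 30 h, Fbln2 had 315 CPM per kilobase, Sparc 109, Thbs1 37.7, Fn1 22.0, Col5a1 1.57, Tnc 0.0783, Col1a1 0.0624 and Lox 0.0385. Under DMSO at 30 h the order began with Sparc at 264, ahead of Fbln2 at 96.3, followed by Thbs1 at 20.0, Fn1 at 12.6 and Col5a1 at 2.66. Fbln2 thus came first in the 3 other groups, with 350 under BRM014 at 6 h and 278 under DMSO at 6 h, and Sparc came first under DMSO at 30 h. The kit keeps strand, but whether the counting used strand is not stated in those sources. Fn1, Col5a1, Tnc, Thbs1 and Lox overlap annotated genes on the opposite strand in GENCODE M21, and reads of such a pair cannot be told apart if strand was ignored.

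Over time in vehicle cells, 3 of the 7 tested genes (Fn1, Fbln2 and Tnc) were lower at 30 h than at 6 h and none was higher, against 17.2% and 18% of all tested genes. In BRM014 cells, Tnc was lower and Col5a1 higher at 30 h, against 16.9% and 19.6%. The order of the groups differed between genes. Levels of Fn1 ran from DMSO at 6 h through BRM014 at 6 h and BRM014 at 30 h down to DMSO at 30 h, and the first pair in that order overlapped. For Fbln2 the order was BRM014 at 6 h, BRM014 at 30 h, DMSO at 6 h and DMSO at 30 h, with no overlap between neighbours. Sparc ran from DMSO at 30 h through DMSO at 6 h and BRM014 at 30 h to BRM014 at 6 h, and the 2 BRM014 groups overlapped. Tnc was highest in DMSO at 6 h and lowest in BRM014 at 30 h, and its middle groups, DMSO at 30 h and BRM014 at 6 h, overlapped.

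Likeness between genes was measured as the root-mean-square (RMS) difference of log2 CPM, centred on each gene's mean over the 8 libraries. Sparc and Col5a1 were the most alike pair among the 7 tested genes, at 0.37, followed by Fn1 and Fbln2 at 0.39 and by Fn1 and Thbs1 at 0.51. The least alike pair was Fbln2 and Col1a1, at 1.78. Tnc was not near any of the others, its nearest being Sparc at 0.89. The 8 points of each profile share their libraries and treatments, so these are descriptions.

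**Figure D3:**
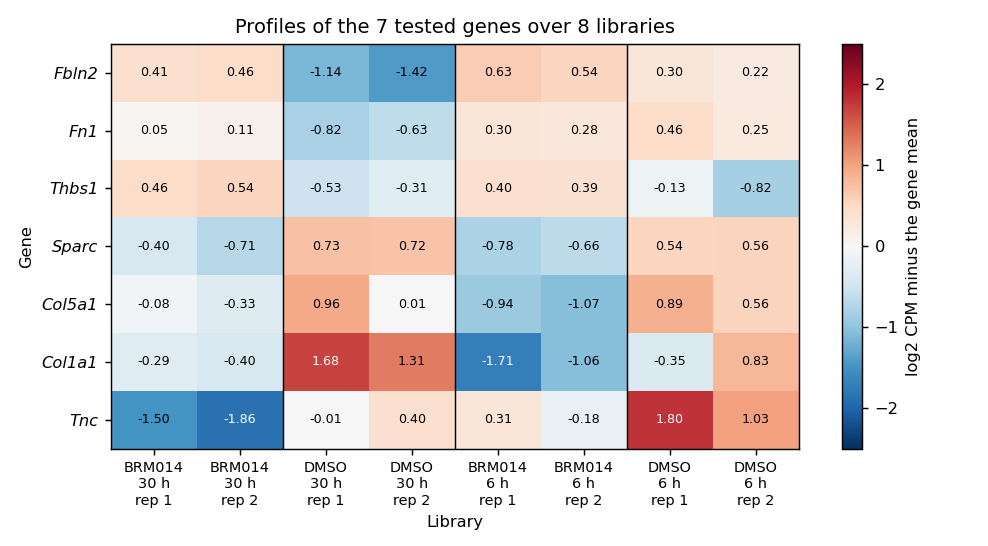
Log2 CPM of the 7 tested genes minus each gene's own mean (colour and printed number) in the 8 libraries (columns, grouped by treatment and time). Fbln2 and Fn1 are lowest in both DMSO libraries at 30 h, while Sparc is positive in all 4 DMSO libraries and negative in all 4 BRM014 libraries.

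Among 9729 other tested genes with a mean log2 CPM of at least 2, the nearest to Fn1 were Pttg1ip and Amotl2, both at an RMS of 0.09. Their effects of BRM014 at 30 h were 0.63 ± 0.09 for Pttg1ip and 0.77 ± 0.12 for Amotl2. All genes named here were picked for likeness over the same 8 libraries, so effects like those of their partner follow from the choice. Nearest to Sparc were Fth1, the ferritin heavy chain, and Emp2, an epithelial membrane protein, both at 0.11. Nearest to Fbln2 were Errfi1, a feedback inhibitor of the EGF receptor, at 0.19 and the adaptor Gab2 at 0.22. Thbs1 was most like Top1mt at 0.13 and Dennd1a at 0.17, and Col5a1 was close to the homeobox gene Dlx3, at 0.20. The low genes had more distant neighbours: Tnc had the chromatin protein gene Hmga2 at 0.33 and Inhbb at 0.39, and Col1a1 had the extracellular superoxide dismutase Sod3 at 0.32 and Mgat3 at 0.35.

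The rest of the matrix pathway was followed with 6 lists of fibrillar and interstitial collagens, collagen processing enzymes, matricellular genes, glycoproteins, proteoglycans and matrix receptors. Without the 8 genes they held 98 genes, of which 58 passed the filter, 2 of them (Cd36 and Col11a1) through BRM014 libraries only and 2 (Efemp1 and Tgfbi) through DMSO libraries only. Such a gene had to be higher under that treatment where it passed, and the counts below include these genes. At 30 h, 14 of the 58 were higher, 22 were lower and 22 did not pass the test, with a median log2 fold change of -0.13, where 16.8% of all tested genes were higher and 19.1% lower. At 6 h, 7 were higher, 26 were lower and 25 did not pass, with a median of -0.46, where 9.35% of all tested genes were higher and 14.4% lower. The counts of the single lists below are to be read against the same shares, and they are descriptions. Over all tested genes the median was -0.0046 at 30 h and -0.01 at 6 h. At 6 h, 11 were higher when libraries were scaled by their totals, and 4 without the second BRM014 library at 6 h.

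Of the 6 other tested collagens, 5 were lower at 30 h, against 19.1% of all tested genes, and 4 were lower at 6 h, against 14.4%. Col12a1, a collagen that coats fibrils, had 0.696 and 0.489 CPM under BRM014 at 30 h, against 26.7 and 31.8 CPM under DMSO at 30 h. The log2 fold change of Col12a1 was -5.67 (adjusted p = 3.12e-09), with no standard error given for so few counts under BRM014 (13 and 15). At 6 h its log2 fold change was -2.90 ± 0.22 (adjusted p = 1.25e-06). Col6a1, of the beaded collagen VI filaments, was lower at 30 h, with a log2 fold change of -1.79 ± 0.16 (adjusted p = 2.61e-06), and Col27a1 was lower at 6 h, with a log2 fold change of -1.67 ± 0.15 (adjusted p = 4.80e-06). Only Col11a1 was higher, from very few counts: 9 and 25 under BRM014 at 30 h, against 1 and 3 under DMSO at 30 h (adjusted p = 0.00889). It passed the filter through 3 BRM014 libraries and no DMSO library, so its direction was fixed by the filter. With a filter of at least 1 CPM in at least 4 libraries it was not tested. Its call ended with DESeq2 (adjusted p = 0.0574), without the first DMSO library at 30 h (0.0633) and without the second BRM014 library at 30 h (0.106). Col1a2, the partner chain of Col1a1, had 10 counts in all libraries and was not tested.

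Of 18 tested genes that modify or crosslink collagen, 4 were higher and 5 lower at 30 h, against 16.8% and 19.1% of all tested genes. At 6 h, 2 were higher and 7 lower, against 9.35% and 14.4%. Pcolce, which helps to cleave the procollagen end, had 41.8 and 38.6 CPM under BRM014 at 30 h, against 145 and 125 CPM under DMSO at 30 h (-1.75 ± 0.12, adjusted p = 1.90e-07). The prolyl hydroxylase subunit P4ha2 was lower at 30 h, with a log2 fold change of -1.50 ± 0.15 (adjusted p = 4.33e-06), and at 6 h the value was -1.59 ± 0.15 (adjusted p = 8.47e-06). Loxl3, a relative of Lox, was higher at 30 h by 1.41 ± 0.34 (adjusted p = 0.00553), with 3.48 and 2.61 CPM under BRM014 against 0.924 and 1.31 CPM under DMSO.

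Of 9 other tested matricellular genes, 1 was higher and 4 were lower at 30 h, against 16.8% and 19.1% of all tested genes. At 6 h, 1 was higher and 6 were lower, against 9.35% and 14.4%. Tgfbi is among the lower genes at both times, but it passed the filter only through DMSO libraries, so it had to be lower under BRM014. The higher gene was Cyr61 at both times, a CCN family gene that had 441 and 505 CPM under BRM014 at 30 h, against 216 and 204 CPM under DMSO at 30 h (1.17 ± 0.15, adjusted p = 4.28e-05). Tnxb, another tenascin, was lower, with a log2 fold change of -2.65 ± 0.17 at 30 h (adjusted p = 1.02e-07), against -2.57 ± 0.16 at 6 h (adjusted p = 3.34e-07). Thbs3, another thrombospondin, was lower at 30 h (-1.98 ± 0.15, adjusted p = 6.27e-07), while Thbs1 was higher. Among glycoproteins and proteoglycans, Ecm1 was lower at 30 h (-1.61 ± 0.12, adjusted p = 4.16e-07) and Vcan, which encodes versican, was lower at 30 h (-0.95 ± 0.10, adjusted p = 1.15e-05). Efemp2, which encodes fibulin-4, was higher at 30 h by 0.48 ± 0.10 (adjusted p = 0.00286).

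Of 17 tested matrix receptors, 7 were higher and 4 lower at 30 h, against 16.8% and 19.1% of all tested genes, and 3 were higher and 5 lower at 6 h, against 9.35% and 14.4%. Sdc4, which encodes the fibronectin receptor syndecan-4, had 384 and 431 CPM under BRM014 at 30 h, against 179 and 187 CPM under DMSO at 30 h (1.16 ± 0.10, adjusted p = 1.33e-06). The thrombospondin receptor Cd36 had 90 and 202 counts under BRM014 at 30 h, against 2 and 2 counts under DMSO at 30 h. The log2 fold change was 5.80 (adjusted p = 1.71e-06), with no standard error given for so few counts under DMSO. Cd36 passed the filter only through those 2 BRM014 libraries, so it had to be higher there, and it is 1 of the 7. Cd36 is also 1 of the 3 higher at 6 h, with 14 counts under BRM014 against 0 under DMSO, summed over each group. The integrin subunit Itgb3 was lower at 30 h, with a log2 fold change of -0.90 ± 0.15 (adjusted p = 0.000348). Itga2, part of a collagen receptor, changed in opposite directions at the 2 times, a difference of 2.36 ± 0.17 (adjusted p = 1.38e-05, 30 h minus 6 h). It was higher at 30 h, with 43.7 and 46.3 CPM under BRM014 against 22.4 and 26.4 CPM under DMSO (0.88 ± 0.12, adjusted p = 8.88e-05). It was lower at 6 h, with 21.7 and 19.2 CPM under BRM014 against 59.1 and 54.7 CPM under DMSO (-1.48 ± 0.12, adjusted p = 2.21e-06). Itga1 was lower at 30 h, with a log2 fold change of -1.59 ± 0.34 (adjusted p = 0.00273), and had -0.79 without the second DMSO library at 30 h (adjusted p = 0.0617).

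**Figure D4:**
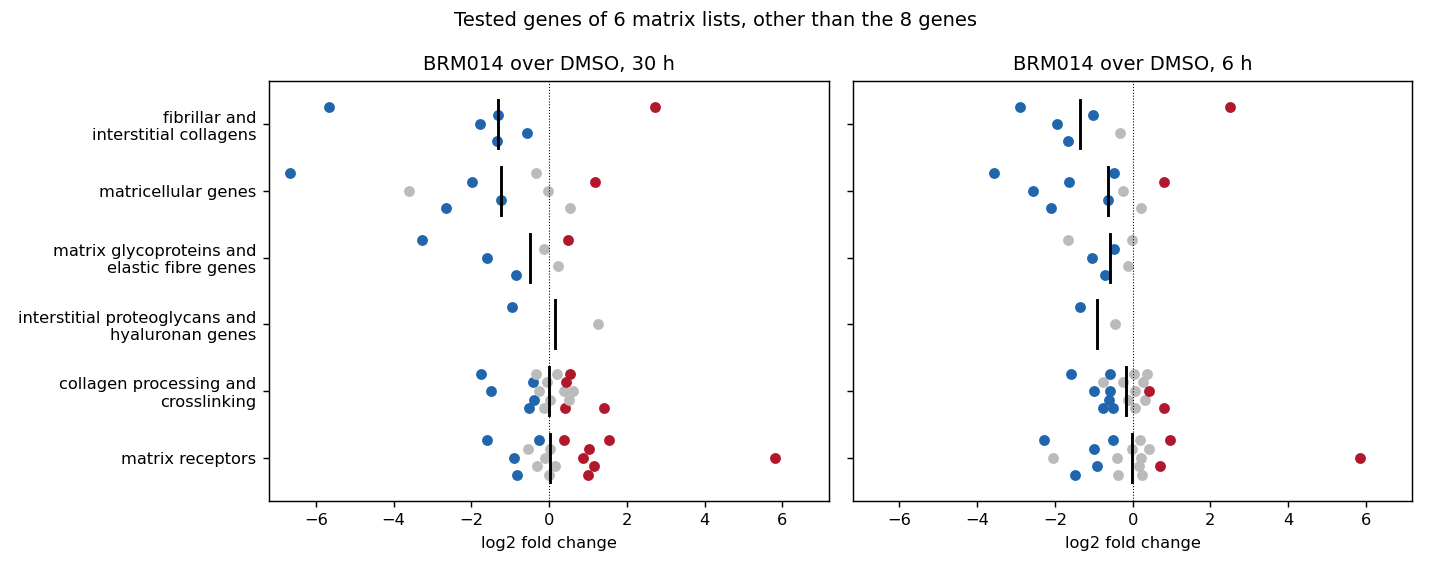
Log2 fold change of BRM014 over DMSO (x axes) at 30 h and at 6 h for each tested gene of 6 matrix lists without the 8 genes (rows). Red points were higher, blue points lower and grey points did not pass the test; bars are list medians. The lowest matricellular point at 30 h (Tgfbi) and the highest receptor point at 6 h (Cd36) have 0 counts in 1 group, so their plotted values are no estimates of size.

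The name fibroblast-type was set against marker genes. Of 12 fibroblast markers, Thy1, Fap, Lum and Tcf21 had no count in any library, and only Pdgfra, Twist2 and Prrx1 passed the filter. The summed fibroblast markers gave 10.9 to 13.3 CPM under BRM014 at 30 h, 25.9 to 35.4 CPM under DMSO at 30 h, 8.65 to 10.4 CPM under BRM014 at 6 h and 19.7 to 21.7 CPM under DMSO at 6 h. Col1a2 and Col3a1 stand in the collagen list too. The lower sums under BRM014 came mainly from Twist2, the highest of the markers, with 4.17 and 3.58 CPM under BRM014 at 30 h, against 26.5 and 20.4 CPM under DMSO at 30 h. The ranges of Prrx1 and Pdgfra overlapped at 30 h, with 8.40 and 6.19 CPM of Prrx1 under BRM014 against 7.99 and 4.64 CPM under DMSO. At 6 h, the values of Twist2, Prrx1 and Pdgfra were lower in both BRM014 libraries than in both DMSO libraries. No test value is given for these markers, and the share of all genes without overlap was not counted. Twist1, which did not pass the filter, went the other way at 6 h, with 0.411 and 0.128 CPM under BRM014 against 0.102 and 0 CPM under DMSO. Prrx1 had 4.93 and 4.69 CPM under BRM014 at 6 h, against 6.86 and 5.87 CPM under DMSO. Pdgfra had 0.36 and 0.43 CPM under BRM014 at 6 h, against 0.46 and 0.52 CPM under DMSO, all close to the filter level of 0.488 CPM. Such values are too few counts to show a drop. The part of these markers in the lower levels of Sparc, Col5a1, Col1a1 and Tnc was not tested. Of 10 epithelial markers, Cdh1, Krt8, Krt18, Krt19 and Ocln passed the filter, led by Krt18, and Epcam, Cldn3 and Cldn7 were listed at 0 in every library. The annotation used for counting is not given, so a marker at 0 in every library need not have lacked RNA. The summed epithelial markers gave 7465 to 8698 CPM under BRM014 at 30 h, 5579 to 5742 CPM under DMSO at 30 h, 5563 to 6149 CPM under BRM014 at 6 h and 5981 to 6334 CPM under DMSO at 6 h. The higher sum under BRM014 at 30 h came mainly from Krt8 and Krt18. Cdh1 was higher at 30 h too, with 524 and 632 CPM under BRM014 against 309 and 416 CPM under DMSO. Ocln had 32.3 and 32.8 CPM under BRM014 at 30 h, against 25.9 and 27.6 CPM under DMSO. Krt19 was lower, with 652 and 663 CPM under BRM014 at 30 h, against 1202 and 1196 CPM under DMSO at 30 h. At 6 h, Krt19 had 280 and 403 CPM under BRM014, against 668 and 776 CPM under DMSO. No test value is given for these markers. The basal and myoepithelial markers, led by Krt14, gave 0.130 to 0.321 CPM under BRM014 at 30 h, against 3.63 to 8.53 CPM under DMSO at 30 h, and 0.981 to 2.41 CPM under BRM014 at 6 h, against 9.36 to 13.2 CPM under DMSO at 6 h. Krt14 was the only 1 of these 7 markers to pass the filter, and its part in the results was not tested either. Endothelial markers and markers of adipocytes and pericytes summed to at most 0.469 CPM, with none that passed the filter. Of the immune markers only Cd68 passed it, and their sum was 2.25 to 2.35 CPM under BRM014 at 30 h, against 3.72 to 6.20 CPM under DMSO at 30 h, and 3.75 to 5.29 CPM under BRM014 at 6 h, against 6.96 to 8.0 CPM under DMSO at 6 h. Its part in the results was not tested.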

How the data were processed

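The data are RNA-seq counts per gene for 8 libraries, deposited by the authors as raw counts with Entrez IDs and symbols. Per the labels, total RNA went into stranded libraries read from one end. The submitters' processing notes name SAMtools 0.1.19, Subread and featureCounts with the genome build mm9 but give no roles; annotation and strand setting were not given in the sources used here. Counts were tested with edgeR 4.0.16 (R 4.3.3): filterByExpr (minimum count 10) kept 11835 of 21240 genes, TMM set the scaling, and 1 quasi-likelihood fit held 4 group means leaving 4 residual degrees of freedom, and 2-sided p-values were adjusted by Benjamini-Hochberg over all tested genes within each comparison. Replicates correlated at 0.990 to 0.994 (log2 CPM) and differed by more than counting noise.

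The 8 genes and all lists were chosen with earlier results of these data known. Named are the 8 genes, the 2 genes per list, time and direction with the smallest p below the threshold (not all are printed), the 2 tested genes nearest each of the 8, and the markers that lead their list. 1 result that this rule names is not reported here. Other genes and values, Col1a2, Efemp1, Tgfbi, Itga2 at 30 h and the markers at 0 or past the filter among them, were named after their values were seen. Of 107 list entries, 106 were found. Alternatives were RLE factors, upper-quartile factors, library totals, scaling on 77 ribosomal protein genes, 2 other filters, DESeq2 1.42.0, limma-voom (limma 3.58.1), a replicate block, only the libraries compared, and each library left out. The code was tested on simulated data. Promoters came from a RefSeq table, from which windows of 4 of the 8 genes were taken.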

Additional observations from a re-analysis of the deposited data

Results flagged for a closer look

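The effect of BRM014 on Fn1 differed between times, by the test of that difference: it was 0.80 at 30 h and -0.07 at 6 h on the log2 scale, a difference of 0.87 ± 0.14 (adjusted p = 0.00284, edgeR quasi-likelihood test). Both BRM014 libraries were above both DMSO libraries at 30 h, and they overlapped at 6 h. The effect on Fbln2 also differed between times, with 1.71 at 30 h and 0.33 at 6 h, a difference of 1.38 ± 0.14 (adjusted p = 0.000125), and both BRM014 libraries were above both DMSO libraries at each time. The integrin subunit gene Itga2, outside the 8 genes, was higher at 30 h (0.88) and lower at 6 h (-1.48), a difference of 2.36 ± 0.17 (adjusted p = 1.38e-05), with no overlap of BRM014 and DMSO libraries at either time.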

How the results depend on the processing

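Sparc, Thbs1, Fbln2, Fn1 and Tnc at 30 h, Sparc, Col5a1 and Thbs1 at 6 h, and the differences between times of Fn1 and Fbln2 kept their direction and their side of the threshold in every alternative run, where the difference ranged from 0.73 to 0.99 for Fn1 and from 1.21 to 1.54 for Fbln2. Low counts limit Col1a1, Tnc and Lox, and the report gives the settings that ended a call of the 8 genes between treatments. With library totals, 1691 of all genes were higher at 6 h (1106 with TMM) and 11 list genes were higher at 6 h (7 with TMM). With ribosomal protein scaling, which moved the median of all genes by up to 0.11 (30 h against 6 h in BRM014), 1117 genes were lower at 6 h and 1394 at 30 h (1709 and 2258 with TMM). The same scaling gave 289 higher and 115 lower differences between times (460 and 306), 948 genes lower with time in DMSO (2034) and 796 lower with time in BRM014 (1999). It moved the share of lower calls among all calls from 53.2% to 42.4% at 30 h, 39.9% to 28.5% for the difference, 48.8% to 33.6% for time in DMSO and 46.3% to 25.6% for time in BRM014. Library totals moved it from 60.7% to 45.1% at 6 h and to 34.1% for time in DMSO, where upper-quartile factors gave 38.4%. Without the filter, 719 differences were higher and 590 lower. Of the 8 genes, 1 (Col1a1) became higher with time in DMSO under library totals, upper-quartile factors, no filter, limma-voom and the block described below (1.24 in the fit reported; adjusted p-values from 0.0358 to 0.0438). With time in BRM014, 0 were higher with limma-voom, and 2 were lower when only the libraries compared were fitted. Values near 0 changed sign: Fn1 at 6 h was 0.018 with library totals, the difference of Sparc was 0.028 with ribosomal protein scaling, and that of Col1a1 was -0.062 with limma-voom.

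Leaving out 1 library at a time, all genes called higher and lower at 30 h numbered 1460 to 2004 and 1608 to 2217, and at 6 h 416 to 1415 and 999 to 1874. Differences called higher and lower numbered 200 to 533 and 130 to 388. For time in DMSO the counts were 1293 to 2160 and 1038 to 2097, and for time in BRM014 they were 1229 to 2492 and 998 to 2222. Of the 8 genes, 2 to 4 were lower at 30 h, 1 to 2 were higher and 2 to 4 lower at 6 h, 2 to 3 differed upwards between times, 0 to 1 were higher and 2 to 4 lower with time in DMSO, and 0 to 1 were higher with time in BRM014. The list genes numbered 13 to 15 higher and 18 to 23 lower at 30 h, and 4 to 9 higher and 23 to 27 lower at 6 h. Fn1 at 6 h ranged from -0.18 to 0.076, and the differences between times from -0.17 to 0.15 for Sparc, -0.75 to 0.68 for Col1a1 and -0.33 to 0.40 for Thbs1. For time in DMSO, Col5a1 ranged from -0.73 to 0.25 and Thbs1 from -0.29 to 0.43. The cause of these shifts was not tested.

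The libraries share replicate numbers across groups, but the labels do not say that a number pairs them. Differences between replicates 1 and 2 correlated between groups at 0.011 to 0.201. With the replicate number as a block, 726 differences between times were higher and 511 lower. Among the 8 genes, the block changed 2 calls: the difference of Col5a1 became 1.02 (adjusted p = 0.0123) and Col1a1 with time in DMSO became 1.25 (adjusted p = 0.0358), so that 1 gene was higher there.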
